A study of Mus musculus with 16 samples.

Results

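The 35 genes described here belong to glycolysis and the response to low oxygen: 15 glycolytic enzymes, 4 carriers of glucose or lactate, 3 kinases that set the flux, HIF-1α with 2 of its prolyl hydroxylases, and 10 other known HIF targets. They were matched by gene symbol among the 55487 genes of a count table, and each of the 35 symbols was found. Low counts kept Ldhb and P4ha2 out of the test, so 33 members were among the 14435 genes tested.

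Glycolysis splits glucose into pyruvate in the cytosol, and lactate dehydrogenase then turns pyruvate into lactate. The transcription factor HIF (hypoxia-inducible factor) raises many of the enzymes and carriers of this pathway when oxygen is low. When oxygen is present, prolyl hydroxylases mark HIF-1α for destruction, and some of the hydroxylase genes are themselves raised by HIF. Maturing red cells also feed glucose carbon into the bisphosphoglycerate branch and clear their mitochondria with BNIP3L, so some genes of this kind belong to the erythroid lineage as well as to the response to low oxygen.

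The cells were mouse leukaemia cells that express the fusion gene CBFB::MYH11 (CM) and GFP, grown in congenic recipient mice and sorted for GFP before RNA sequencing. A group of 4 spleen libraries, secondary disease, came from another cohort kept on treatment until the mice were terminally ill; the labels give doxycycline for all 4, while the design text speaks of either water. The remaining groups, 3 libraries each, were taken after 7 days: spleen doxycycline and bone marrow doxycycline from mice that drank 3 mg/ml doxycycline in 5% sucrose, and spleen control and bone marrow control from mice that drank 5% sucrose alone. The doxycycline and secondary disease libraries are labelled as cells carrying an shRNA, and doxycycline switches that shRNA against MYH11 on. Control libraries are labelled as CM-expressing cells with no mention of an shRNA, whereas the design text places the shRNA cells under both waters. Without a doxycycline group lacking the shRNA, the drug and the knockdown cannot be told apart. The titles do not say that each library is a separate mouse, so the p-values measure the spread between libraries, which may in part be technical.

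Totals ran from 12259707 counts in secondary disease replicate 4 to 39419370 in spleen control replicate 3. Mouse Myh11 had 0 to 9 counts in every library and does not measure the fusion. Globin transcripts made up 0.527%, 7.15% and 3.73% of all counts in spleen doxycycline replicates 1, 2 and 3, against 0.282% to 0.468% in spleen control. The bone marrow doxycycline libraries held 4.50% to 5.603% and those of bone marrow control 0.212% to 0.416%. Spleen doxycycline replicate 1 therefore lay close to its controls, and replicate 2 lay beyond every other library in this measure. Secondary disease replicate 4 went against its label of sorted spleen leukaemia cells. Its 14 markers of neurons and glia summed to 2417 CPM (counts scaled to a common library total) with none at 0, against 5.96 to 7.46 in the other 3 secondary disease libraries, each with 8 to 10 of them at 0. The neuronal gene Snap25 had 457 CPM in replicate 4 and 0 in the other 3. In the 12 libraries of the other groups this list summed to 3.87 to 90.8 CPM, and Gfap gave most of the highest of these sums, 87.8 CPM in spleen doxycycline replicate 2.

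HIF binds a short core that reads ACGTG or GCGTG. The promoters below belong to the 5 members that passed a test. Ldha was added because its window held the most matches of any member's when each strand is counted. Each window runs from 250 bases before to 50 after a RefSeq transcription start (build GRCm38.p6), 5′ to 3′ on the gene's strand, with ACGTG or GCGTG on either strand in capitals.
Slc2a1: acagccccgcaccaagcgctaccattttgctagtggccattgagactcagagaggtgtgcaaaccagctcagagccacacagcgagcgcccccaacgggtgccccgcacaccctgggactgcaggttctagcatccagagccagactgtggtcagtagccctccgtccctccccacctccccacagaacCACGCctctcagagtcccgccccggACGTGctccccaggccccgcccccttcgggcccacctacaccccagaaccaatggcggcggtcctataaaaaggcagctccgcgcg
P4ha1: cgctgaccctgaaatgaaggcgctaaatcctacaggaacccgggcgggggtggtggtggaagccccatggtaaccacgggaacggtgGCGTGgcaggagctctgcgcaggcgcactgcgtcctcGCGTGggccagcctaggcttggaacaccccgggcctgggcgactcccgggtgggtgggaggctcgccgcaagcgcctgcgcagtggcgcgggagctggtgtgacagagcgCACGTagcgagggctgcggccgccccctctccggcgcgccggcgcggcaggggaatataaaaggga
Pfkfb3: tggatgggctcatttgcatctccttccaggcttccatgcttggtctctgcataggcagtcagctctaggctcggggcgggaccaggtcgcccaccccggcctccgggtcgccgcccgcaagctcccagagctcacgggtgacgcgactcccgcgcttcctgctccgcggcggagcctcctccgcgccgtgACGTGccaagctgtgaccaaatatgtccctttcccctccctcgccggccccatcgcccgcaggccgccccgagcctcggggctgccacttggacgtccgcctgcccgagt
Vegfa: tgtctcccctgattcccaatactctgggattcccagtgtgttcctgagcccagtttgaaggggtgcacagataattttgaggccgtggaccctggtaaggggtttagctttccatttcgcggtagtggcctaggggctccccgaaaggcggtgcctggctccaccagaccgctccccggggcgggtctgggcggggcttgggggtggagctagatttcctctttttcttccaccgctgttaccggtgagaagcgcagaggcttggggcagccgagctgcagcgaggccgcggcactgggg
Hk2: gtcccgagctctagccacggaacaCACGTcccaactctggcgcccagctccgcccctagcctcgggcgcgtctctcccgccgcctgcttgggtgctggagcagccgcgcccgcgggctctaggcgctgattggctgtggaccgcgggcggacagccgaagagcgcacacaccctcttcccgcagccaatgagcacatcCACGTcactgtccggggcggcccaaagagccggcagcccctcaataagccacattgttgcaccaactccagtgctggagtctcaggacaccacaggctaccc
Ldha: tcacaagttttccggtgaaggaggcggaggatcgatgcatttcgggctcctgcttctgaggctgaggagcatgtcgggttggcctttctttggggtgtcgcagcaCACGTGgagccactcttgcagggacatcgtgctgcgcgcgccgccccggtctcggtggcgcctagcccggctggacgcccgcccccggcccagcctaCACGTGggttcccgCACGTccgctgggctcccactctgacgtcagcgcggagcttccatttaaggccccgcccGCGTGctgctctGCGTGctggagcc
The windows were Slc2a1 chr4:119108495-119108794 (plus strand), P4ha1 chr10:59323046-59323345 (plus), Pfkfb3 chr2:11553880-11554179 (minus), Vegfa chr17:46032328-46032627 (minus), Hk2 chr6:82774405-82774704 (minus) and Ldha chr7:46845554-46845853 (plus). A gene with several annotated starts is shown at the one nearest its gene start. Slc2a1 held 1 ACGTG and 1 GCGTG, P4ha1 held 1 and 2, and Pfkfb3 held 1 ACGTG. Hk2 held 2 ACGTG and Ldha held 5 ACGTG and 2 GCGTG. Each strand was counted, so each of the 2 CACGTG in the Ldha window gave 2 of its ACGTG matches. The Vegfa window held neither, while a second Vegfa window at chr17:46025114-46025413 held 1 of each. RefSeq windows were matched for 32 members and 30 of them had a match, ACGTG or GCGTG, in one or more windows. By window, 77.6% of 49 member windows held one, against 43.8% of all 32851 windows. ACGTG alone was in 55.1% of the member windows and 19.6% of all windows. CACGTG, the E-box, contains ACGTG and was in 12.2% of member windows and 7.15% of all. Bnip3l, Ndrg1 and Slc2a3 were not matched. A match is a string of letters and not a measured site.

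The first question was what 7 days of doxycycline did to these genes in the bone marrow. Slc2a1 and P4ha1 rose and Pfkfb3 fell in bone marrow doxycycline, and no glycolytic enzyme passed. These 3 calls were 9.09% of the 33 members tested, against 6.57% of all genes tested (edgeR quasi-likelihood test, Benjamini-Hochberg adjusted p under 0.05 over all genes tested). The share among the members was thus near that among all genes. All 16 libraries share an estimate of the spread, and with secondary disease replicate 4 taken out of it 7 members passed, against 17% of all genes.

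Slc2a1 encodes GLUT1, the glucose carrier of many dividing cells (chromosome 4, 119108711 to 119137983, plus strand, GRCm38). It had 268, 346 and 307 CPM in bone marrow doxycycline, against 86.9, 92.3 and 105 CPM in bone marrow control. All 3 doxycycline libraries lay above all 3 controls. The authors' counts are not stated to use strand. Reads from the stretch where exons of Gm12868 overlap Slc2a1 on the other strand therefore cannot be told apart by strand. The log2 fold change was 1.70 ± 0.48 (SE; edgeR adjusted p = 0.0480). The other glucose carrier measured, Slc2a3 (GLUT3), had 113, 192 and 117 CPM in bone marrow doxycycline and 312, 163 and 209 CPM in bone marrow control, so the groups overlapped (log2 fold change -0.70, edgeR adjusted p = 0.473). In TPM, a level per transcript length, Slc2a1 made up 71.6% ± 3.58 of the summed level of the pair in bone marrow doxycycline and 33.2% ± 7.42 in bone marrow control (SD, n = 3 each). The lactate carriers Slc16a1 and Slc16a3 had log2 fold changes of -0.34 and -0.48 and did not pass (edgeR adjusted p = 0.615 and 0.226).

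**Figure D1:**
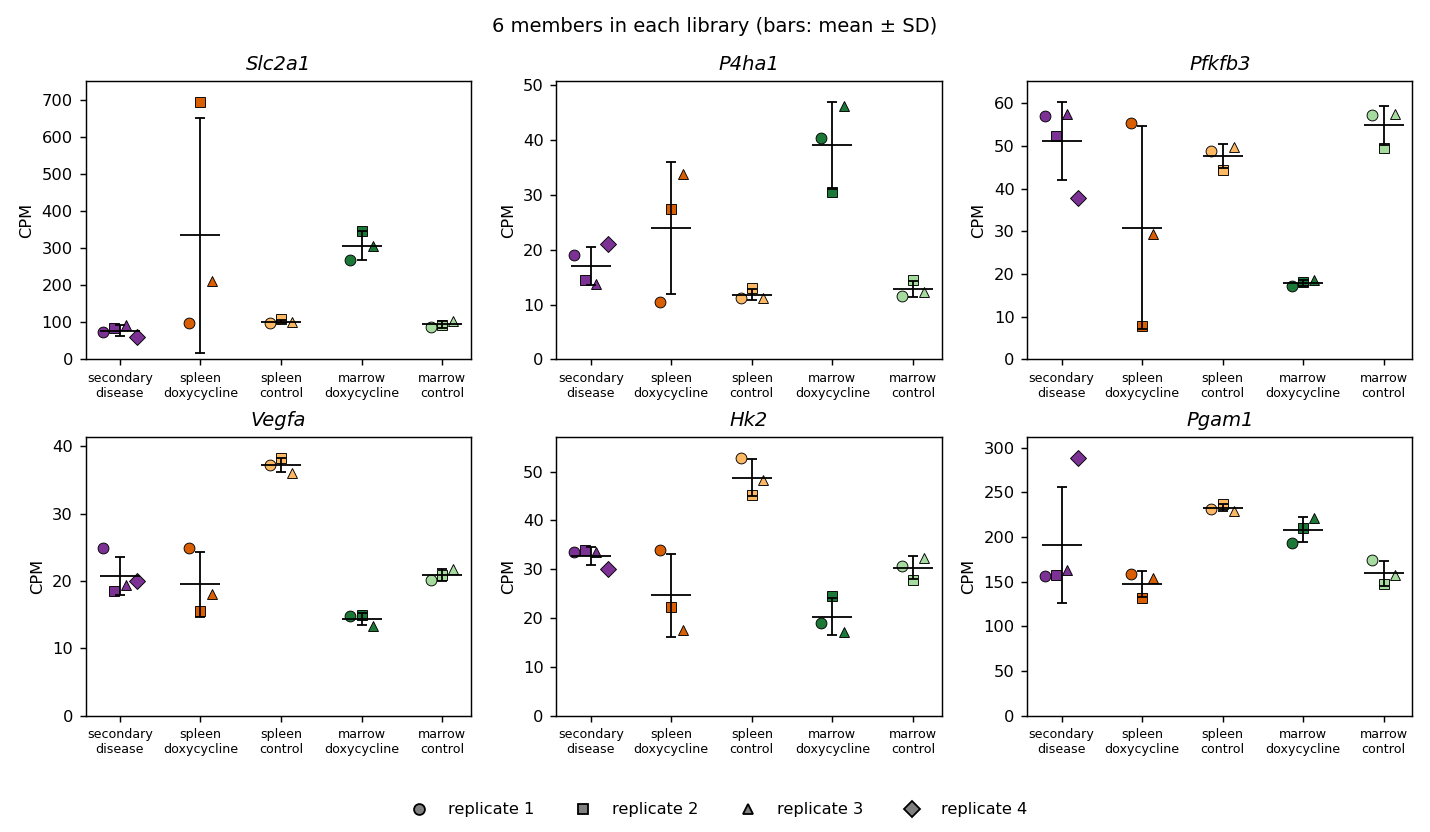
CPM of 6 members in every library by group, with a symbol for each replicate number and bars for the mean ± SD. Slc2a1 and P4ha1 are high in all bone marrow doxycycline libraries and in spleen doxycycline replicates 2 and 3, and Vegfa and Hk2 are highest in spleen control.

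P4ha1 encodes the catalytic subunit of collagen prolyl 4-hydroxylase and is a HIF target in many cells (chromosome 10, 59323296 to 59373304, plus strand). It had 40.3, 30.4 and 46.2 CPM in bone marrow doxycycline, against 11.6, 14.5 and 12.3 CPM in bone marrow control. The lowest doxycycline library was above the highest control. The log2 fold change was 1.61 ± 0.33 (edgeR adjusted p = 0.0147). Its paralog P4ha2 had no counts in either bone marrow group.

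Pfkfb3 encodes a kinase that makes fructose 2,6-bisphosphate, the activator of phosphofructokinase (chromosome 2, 11471433 to 11554077, minus strand). It had 17.2, 18.0 and 18.6 CPM in bone marrow doxycycline, against 57.4, 49.6 and 57.4 CPM in bone marrow control. The doxycycline libraries were close to each other and lay below all controls. The log2 fold change was -1.61 ± 0.44 (edgeR adjusted p = 0.0443). Its relative Pfkfb4 had 0.896, 1.29 and 1.03 CPM in bone marrow doxycycline and 2.69, 2.32 and 2.47 CPM in bone marrow control, with no overlap and no call (log2 fold change -1.22, edgeR adjusted p = 0.39). Pdk1, the kinase that turns off pyruvate dehydrogenase, had 63.1, 52.6 and 64.1 CPM in bone marrow doxycycline and 34.5, 34.8 and 30.4 CPM in bone marrow control. Its groups did not overlap either, and it did not pass (log2 fold change 0.85, edgeR adjusted p = 0.185).

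Leaving out any 1 of the 6 bone marrow libraries ended the calls of Slc2a1 and Pfkfb3 (edgeR adjusted p = 0.111 to 0.168 and 0.109 to 0.15). Those fits called 0.154% to 1.55% of all genes, against 6.57% with every library, so the loss is not particular to these members. The P4ha1 call ended in 5 of these 6 fits (edgeR adjusted p = 0.0589 to 0.0677) and held without bone marrow doxycycline replicate 2, while the fold changes of all 3 genes kept their sign. Pfkfb3 also lost its call without spleen doxycycline replicate 3 (edgeR adjusted p = 0.0548).

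Among the 14 glycolytic enzymes tested, 0 passed with edgeR. An unadjusted p under 0.05 was found for 3, beside 21.9% of all genes tested. DESeq2 called 1 and limma-voom 0, beside 13.8% and 6.51% of all genes. The enzymes had a median log2 fold change of -0.10, with 5 positive and 9 negative, beside a median of -0.02 over all genes tested. In 4 enzymes all doxycycline libraries lay below all controls, which was the case for 24.6% of all genes tested. Pfkp, the platelet form of phosphofructokinase, had 92.2, 103 and 89.9 CPM in bone marrow doxycycline, against 229, 188 and 220 CPM in bone marrow control. It came nearest to the threshold (log2 fold change -1.16 ± 0.34, edgeR adjusted p = 0.0549) and passed without secondary disease replicate 4 (edgeR adjusted p = 0.035). The other phosphofructokinase forms, liver Pfkl and muscle Pfkm, had log2 fold changes of -0.04 and 0.01. By TPM, Pfkp made up 20.5% ± 1.94 of the 3 forms in bone marrow doxycycline and 36.9% ± 3.43 in bone marrow control (SD, n = 3 each). Ldha, the main lactate dehydrogenase, had 801, 785 and 928 CPM in bone marrow doxycycline and 1231, 1362 and 1048 CPM in bone marrow control (log2 fold change -0.53, edgeR adjusted p = 0.202). Hk2 and Pgk1 were the other enzymes with every doxycycline library below every control, at -0.58 and -0.42. Pgam1, phosphoglycerate mutase, went the other way, with 193, 210 and 221 CPM in bone marrow doxycycline, against 174, 147 and 157 CPM in bone marrow control. Its log2 fold change of 0.38 passed without secondary disease replicate 4 (edgeR adjusted p = 0.021) and not with it (0.299). The pseudogene Pgam1-ps2 had 0.335% to 5.88% as many counts as Pgam1 over the 16 libraries, so the Pgam1 value is uncertain by the way reads were shared between the copies.

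**Figure D2:**
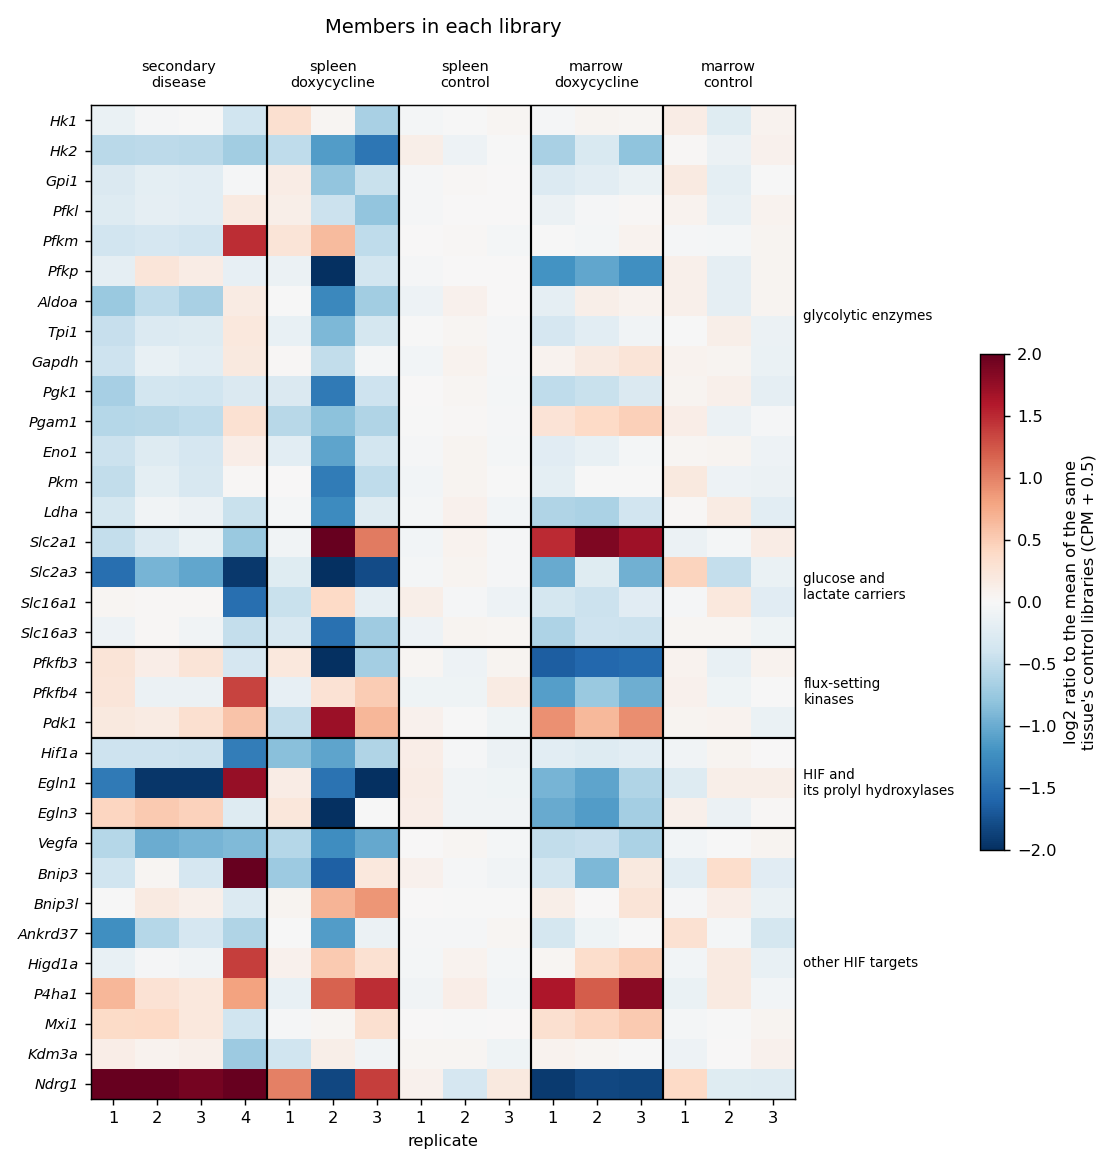
Log2 ratio of each library to the mean of the same tissue's control libraries (CPM + 0.5) for the 33 members tested, with columns for libraries and rows grouped by role; colours end at 2 and -2. Most glycolytic enzymes are blue in spleen doxycycline replicates 2 and 3 and near white in replicate 1, and secondary disease replicate 4 differs from replicates 1 to 3 in Pfkm, Slc16a1, Egln1, Bnip3 and Higd1a.

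None of the 3 HIF and hydroxylase genes passed in the bone marrow. Hif1a, which encodes HIF-1α, had 69.8, 67.7 and 70.2 CPM in bone marrow doxycycline and 77.5, 84.8 and 81.6 CPM in bone marrow control. The prolyl hydroxylase gene Egln3 had 24.4, 22.8 and 31.0 CPM in bone marrow doxycycline and 53.3, 45.7 and 50.4 CPM in bone marrow control. For both genes the groups did not overlap, and neither passed (log2 fold change -0.23 and -0.93, edgeR adjusted p = 0.599 and 0.293). Of the 9 other HIF targets tested, P4ha1 alone passed, 5 fold changes were positive and 4 negative, and the median was 0.03. Vegfa, the angiogenic growth factor, had 14.7, 15.0 and 13.3 CPM in bone marrow doxycycline, against 20.1, 20.9 and 21.8 CPM in bone marrow control, with no overlap (log2 fold change -0.55, edgeR adjusted p = 0.0704). Without secondary disease replicate 4 Vegfa passed as lower and Mxi1, a MYC antagonist, as higher (edgeR adjusted p = 0.0363 and 0.0176). Ndrg1, a differentiation-associated HIF target, had 1.24, 1.36 and 1.34 CPM in bone marrow doxycycline and 8.16, 5.04 and 5.03 CPM in bone marrow control (log2 fold change -2.20, edgeR adjusted p = 0.168). The mitophagy receptor gene Bnip3l and the histone demethylase gene Kdm3a had log2 fold changes of 0.13 and 0.03.

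Other genes of the pathway were read from longer lists. Of 35 tested genes of glycolysis and its carbon branches, 3 rose and 2 fell in bone marrow doxycycline, where 3.96% of all genes tested rose and 2.61% fell. Bpgm, which makes the 2,3-bisphosphoglycerate of red cells, had 198, 214 and 250 CPM in bone marrow doxycycline, against 45.3, 41.7 and 45.2 CPM in bone marrow control (log2 fold change 2.32 ± 0.39, edgeR adjusted p = 0.00643). Pklr, the pyruvate kinase of liver and red cells, had 41.8, 21.3 and 46.8 CPM in bone marrow doxycycline, against 0.0408, 0 and 0.383 CPM in bone marrow control (edgeR adjusted p = 0.0421). Taldo1, of the pentose phosphate pathway, also rose (log2 fold change 1.11, edgeR adjusted p = 0.00552). Tigar, a fructose bisphosphatase induced by p53, and Pgm1, which feeds glycogen glucose into glycolysis, fell (log2 fold change -2.80 and -1.16, edgeR adjusted p = 0.0255 and 0.0495). Of 37 other hypoxia response genes tested, 5 rose and 0 fell, beside the same shares of all genes. Among them were the haem oxygenase Hmox1, Ccng2, the HIF relative Hif3a and the lipid droplet gene Plin2, with log2 fold changes of 1.98, 0.50, 6.03 and 1.11 (edgeR adjusted p = 0.0145 to 0.044).

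Markers of other cells moved with these genes. Of 17 erythroid markers, 13 rose in bone marrow doxycycline, and their summed level was 55100 to 68010 CPM there, against 7093 to 9134 CPM in bone marrow control; none of the 17 was at 0 in any library. The 12 neutrophil markers summed to 329 to 672 CPM in bone marrow doxycycline and 897 to 1337 CPM in bone marrow control, and 0 passed with edgeR (0 at an unadjusted p under 0.05). The 9 megakaryocyte markers summed to 139 to 171 CPM in bone marrow doxycycline and 451 to 561 CPM in bone marrow control, and 2 of the 5 tested fell. Markers of haematopoietic progenitors and leukaemia cells summed to 2483 to 2827 CPM in bone marrow doxycycline and 3009 to 3272 CPM in bone marrow control, with 1 of 8 tested called, as higher. Stromal and endothelial markers summed to 199.7 to 205.5 CPM in bone marrow doxycycline and 107.5 to 127.3 CPM in bone marrow control, with 0 of 5 called (0 at an unadjusted p under 0.05). The part of these lists in the results was not tested, and in bulk RNA more cells of a type and more RNA per cell cannot be told apart.

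**Figure D3:**
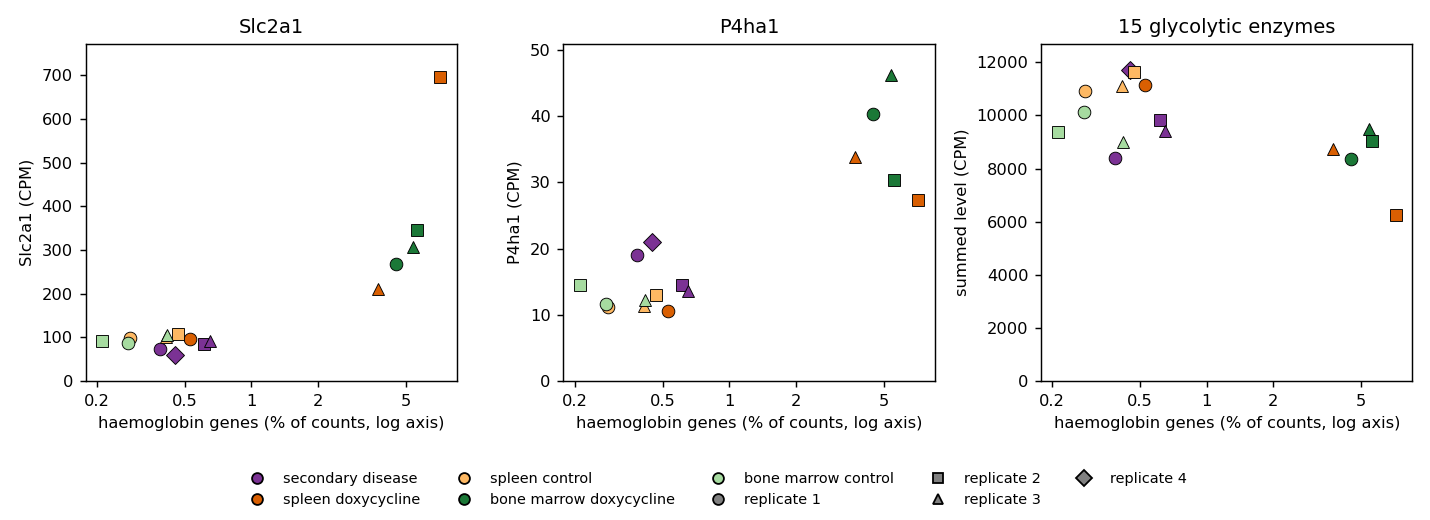
Haemoglobin genes as a percent of counts (log axis) beside Slc2a1 in CPM, P4ha1 in CPM and the summed level of the 15 glycolytic enzymes in CPM, with a point for each library, coloured by group. The 5 doxycycline libraries above 3% haemoglobin have the 5 highest Slc2a1 and P4ha1 levels, and spleen doxycycline replicate 1 has a haemoglobin share near that of the controls, at 0.527%.

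The second comparison asked the same of the spleen. Vegfa and Hk2 fell in spleen doxycycline, and glycolytic enzymes were lower in 2 of the 3 doxycycline libraries. These 2 calls of 33 stood beside 0.741% of all genes tested. Without secondary disease replicate 4, 5 members passed, all lower, against 5.37% of all genes. Vegfa had 24.9, 15.5 and 18.1 CPM in spleen doxycycline, against 37.3, 38.3 and 36.1 CPM in spleen control (chromosome 17, 46016993 to 46032369, minus strand). All doxycycline libraries lay below all controls, replicate 1 included (log2 fold change -0.93 ± 0.17, edgeR adjusted p = 0.0404). Hk2, the hexokinase form that HIF raises, had 34.0, 22.3 and 17.5 CPM in spleen doxycycline, against 52.9, 45.2 and 48.3 CPM in spleen control (chromosome 6, 82725025 to 82774454, minus strand). Its groups did not overlap (log2 fold change -0.99 ± 0.20, edgeR adjusted p = 0.0478). Both calls ended when any spleen control library, spleen doxycycline replicate 2 or spleen doxycycline replicate 3 was left out (edgeR adjusted p = 0.0595 to 0.276). Those fits called 0% to 0.248% of all genes, so the loss is not particular to these members. Of the summed TPM of Hk1 and Hk2, Hk2 made up 1.96% ± 0.440 in spleen doxycycline and 3.42% ± 0.245 in spleen control. Other hexokinases were not in this sum.

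The 14 enzymes tested had a median log2 fold change of -0.46 in spleen doxycycline, with 13 negative, beside 0.02 over all genes tested. The 6 enzymes Hk2, Pfkp, Tpi1, Pgk1, Pgam1 and Eno1 lay below every control in all 3 libraries, as 10.7% of all genes tested did. The libraries differed: in spleen doxycycline replicates 1, 2 and 3 the median log2 ratio to the control mean was -0.03, -0.97 and -0.48. Pkm, the pyruvate kinase of most tissues, had 1572, 589 and 1093 CPM in spleen doxycycline, against 1508, 1622 and 1555 CPM in spleen control. Aldoa, an aldolase, had 1086, 449 and 679 CPM in spleen doxycycline, against 1025, 1161 and 1099 CPM in spleen control. In both genes replicate 1 was at the level of the controls and replicates 2 and 3 were below. Pfkm was the exception among the enzymes, with 95.5, 124 and 55.9 CPM in spleen doxycycline and 80.4, 81.4 and 78.2 CPM in spleen control. Without spleen doxycycline replicate 1, 14 members passed, 4 higher and 10 lower, against 9.13% of all genes. The 6 enzymes among them, Hk2, Gpi1, Pfkl, Aldoa, Pgk1 and Pkm, were all lower. The others were Slc2a1, P4ha1, Pdk1 and Bnip3l, higher, and Vegfa, Slc2a3, Slc16a3 and Pfkfb3, lower. Without spleen doxycycline replicate 2, 0 members passed with edgeR, against 0.248% of all genes, and the enzyme median was -0.24.

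Slc2a1 showed the same split, with 97.5, 696 and 211 CPM in spleen doxycycline, against 98.3, 108 and 101 CPM in spleen control. Replicate 1 lay below the lowest control and replicate 2 had the highest value of the 16 libraries. The call missed with all libraries (log2 fold change 1.71, edgeR adjusted p = 0.112) and was made without replicate 1 (2.14, edgeR adjusted p = 0.00177). P4ha1 had 10.5, 27.4 and 33.8 CPM in spleen doxycycline, against 11.2, 12.9 and 11.3 CPM in spleen control, again with replicate 1 below the controls. It too passed only without replicate 1 among the fits that leave out 1 library (1.37, edgeR adjusted p = 0.00147). Slc2a3 had 413, 66.8 and 140 CPM in spleen doxycycline, against 472, 506 and 480 CPM in spleen control, so all 3 were lower (log2 fold change -1.23, edgeR adjusted p = 0.297, and 0.0038 without replicate 1). Slc2a1 thereby held 22.1%, 90.9% and 62.7% of the pair's TPM in spleen doxycycline and 19.8% to 20.3% in spleen control. Hif1a had 57.2, 48.8 and 67.0 CPM in spleen doxycycline, against 112, 101 and 93.9 CPM in spleen control. All 3 doxycycline libraries were below the controls (log2 fold change -0.82 ± 0.21, edgeR adjusted p = 0.0854), and the call was made without secondary disease replicate 4 (edgeR adjusted p = 0.00489). Slc16a3, the lactate exporter MCT4, had 232, 102 and 177 CPM in spleen doxycycline and 271, 301 and 297 CPM in spleen control (log2 fold change -0.76, edgeR adjusted p = 0.13, and 0.00702 without replicate 1). Of the other HIF targets, Bnip3l had 226, 350 and 403 CPM in spleen doxycycline and 220, 217 and 217 CPM in spleen control, all higher and not called (log2 fold change 0.58, edgeR adjusted p = 0.161); without replicate 1 it passed (0.00443).

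Of the longer lists, Bpgm alone passed in spleen doxycycline, with 46.1, 226 and 165 CPM, against 31.1, 30.4 and 32.7 CPM in spleen control (log2 fold change 2.21, edgeR adjusted p = 0.0365). Taldo1 and Pklr came next (edgeR adjusted p = 0.0512 and 0.053; Pklr was at 0 CPM in replicate 1), ahead of the insulin-responsive glucose carrier gene Slc2a4 (0.0873). None of 37 other hypoxia response genes passed with edgeR (6 at an unadjusted p under 0.05, beside 12.4% of all genes tested). Hif3a, Plin2, Fosl2 and Bhlhe40 came nearest (log2 fold change 6.87, 1.21, -1.56 and -1.92). The erythroid markers summed to 9239, 97870 and 47520 CPM in spleen doxycycline replicates 1, 2 and 3, against 6746 to 9165 CPM in spleen control, and 8 of 17 passed as higher. Progenitor and leukaemia markers summed to 903 to 3052 CPM in spleen doxycycline and 3429 to 3511 CPM in spleen control (0 of 8 called, 2 at an unadjusted p under 0.05). B cell markers summed to 30.95 to 97.3 CPM in spleen doxycycline and 11.55 to 16.05 CPM in spleen control (0 of 7 called, 4 at an unadjusted p under 0.05). The part of these lists in the members' values was not tested. Mitochondrial genes took 5.20% of the counts in spleen doxycycline replicate 3 and 2.14% in the lowest library of that group.

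**Figure D4:**
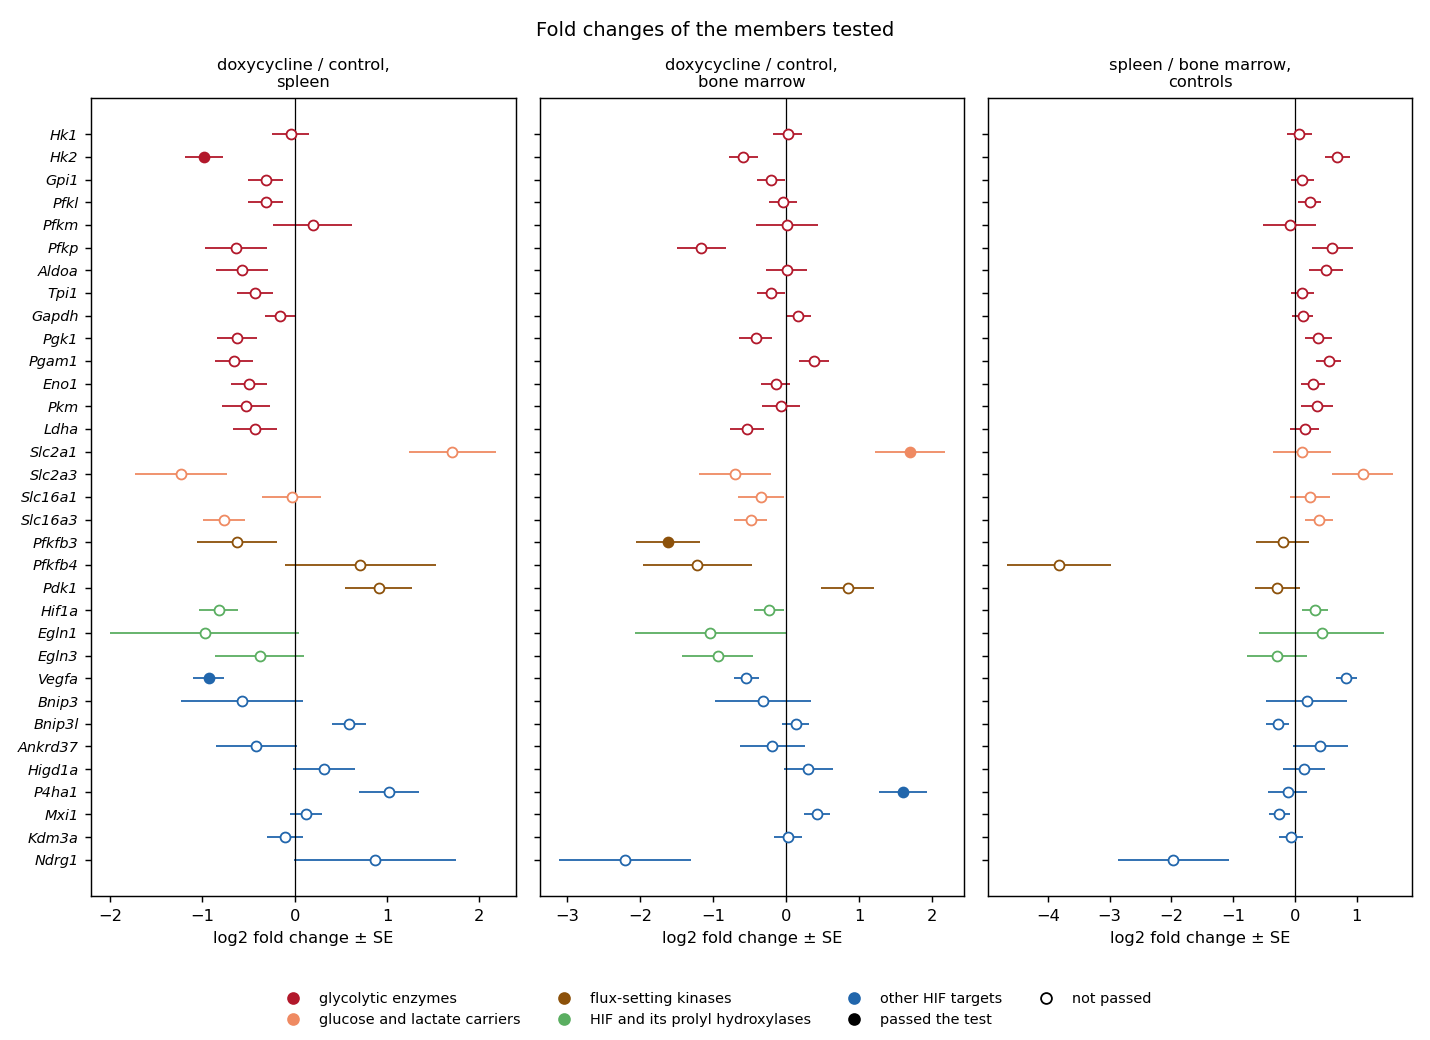
Log2 fold change ± SE (edgeR) of the 33 members tested for doxycycline against control in spleen, the same in bone marrow, and spleen against bone marrow in the controls; filled points passed the test and each panel has its own axis. Glycolytic enzymes lie left of 0 in the spleen panel and right of 0 in the panel of the controls, with Pfkm the exception in both.

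The tissues were then compared. In the controls, spleen against bone marrow, 13 of 14 enzymes had a positive log2 fold change, with a median of 0.27 beside -0.01 over all genes tested. None of the 33 members passed with edgeR, against 0.187% of all genes tested. At an unadjusted p under 0.05 there were 6, beside 6.92% of all genes. DESeq2 called 3 members, beside 2.11% of all genes, and limma-voom called 2, beside 1.18%. Without secondary disease replicate 4, Vegfa, Pgam1 and Pfkfb4 passed, against 1.33% of all genes. Vegfa had 37.3, 38.3 and 36.1 CPM in spleen control and 20.1, 20.9 and 21.8 CPM in bone marrow control (log2 fold change 0.83 ± 0.17, edgeR adjusted p = 0.0782). Pfkfb4 had 3, 3 and 10 counts in spleen control and 66, 65 and 58 counts in bone marrow control, so its level in spleen was near the counting floor of 3 counts (fitted log2 fold change -3.81, edgeR adjusted p = 0.0944). Hk2 and Pgam1 followed (log2 fold change 0.69 and 0.55, edgeR adjusted p = 0.252 and 0.479). In 9 enzymes every spleen control lay above every bone marrow control, as in 16.3% of all genes tested. Of the 9, Gapdh did so by less than 1 CPM, with 2444 CPM in both the lowest spleen control and the highest bone marrow control. The others included Hk2 (52.9, 45.2 and 48.3 CPM in spleen control, 30.8, 27.8 and 32.4 CPM in bone marrow control), Pgk1 (477, 486 and 461 CPM in spleen control, 380, 392 and 324 CPM in bone marrow control) and Aldoa. By TPM the most abundant enzyme was Gapdh, at 2974 ± 35.7 in spleen control and 2681 ± 32.3 in bone marrow control. The other HIF targets had no common direction between tissues, with 4 positive and 5 negative and a median of -0.07. Mxi1, Bnip3l and Ndrg1 were lower in every spleen control than in every bone marrow control, as were 16.5% of all genes tested. The 12 neutrophil markers summed to 54.9 to 173 CPM in spleen control and 897 to 1337 CPM in bone marrow control (0 passed with edgeR, 12 at an unadjusted p under 0.05), and their part was not tested. Among the longer lists Hk3, a hexokinase of myeloid cells, and the chemokine receptor gene Cxcr4 came nearest (log2 fold change -2.85 and -3.66, edgeR adjusted p = 0.0879 and 0.202). After them came Pdhb, Pdk3 and Bpgm of the first list and Ppp1r3b, Sap30 and Ddit4 of the second, with edgeR adjusted p of 0.477 or more.

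Under doxycycline, 0 of 33 members passed between spleen and bone marrow with edgeR, against 0.0485% of all genes tested. At an unadjusted p under 0.05 there were 6, beside 10.9% of all genes. DESeq2 called 1 member, beside 3.03% of all genes, and limma-voom called 0, beside 0.443%. Pfkp had 297, 75.9 and 250 CPM in spleen doxycycline and 92.2, 103 and 89.9 CPM in bone marrow doxycycline, with replicate 2 of the spleen alone below the marrow (log2 fold change 1.13, edgeR adjusted p = 0.208). Mxi1, Vegfa and Pgam1 followed, each with no overlap, at log2 fold changes of -0.56, 0.44 and -0.49 (edgeR adjusted p = 0.234, 0.338 and 0.38). Of the 33 members, 2 lay higher and 4 lower in every spleen library than in every marrow library. Among the 14435 genes tested, 863 and 1372 did so. Without spleen doxycycline replicate 2, 6 members passed, against 7.18% of all genes, and Pfkp led them (1.53, edgeR adjusted p = 0.000106). Pfkfb3, Vegfa and Egln3 then passed as higher in spleen (1.24, 0.59 and 0.77) and Slc2a1 and Pdk1 as lower (-0.99 and -0.93; edgeR adjusted p = 0.00512 to 0.0479 over the 5). Without secondary disease replicate 4, Mxi1 and Pgam1 passed as lower in spleen, against 2.69% of all genes. Of the longer lists 0 genes passed with edgeR (3 of 35 and 7 of 37 at an unadjusted p under 0.05); the smallest p-values belonged to Tigar, Hk3, Pgam2 and Pdk3 and to Ppp1r3b, Cxcr4, Ccng2 and Angptl4 (edgeR adjusted p = 0.181 to 0.459).

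The difference between the doxycycline effects in spleen and in bone marrow was tested as an interaction. None of the 33 members passed with edgeR, against 0.0485% of all genes tested. At an unadjusted p under 0.05 there were 2, beside 7.63% of all genes. DESeq2 called 1 member, beside 1.73% of all genes, and limma-voom called 0, beside 0.236%. Pgam1 came nearest, with 159, 131 and 154 CPM in spleen doxycycline against 231, 237 and 230 CPM in spleen control, and the values above in bone marrow. All doxycycline libraries were lower in the spleen and all were higher in the bone marrow. The interaction was -1.04 ± 0.29 on the log2 scale (edgeR adjusted p = 0.255), and without secondary disease replicate 4 it passed (-1.04, edgeR adjusted p = 0.0104), against 0.736% of all genes. Ndrg1, Hif1a and Bnip3l followed with interactions of 3.08, -0.59 and 0.45 (edgeR adjusted p = 0.55, 0.7 and 0.766). Without spleen doxycycline replicate 2, Pfkfb3, Pfkp and Ndrg1 passed, against 4.32% of all genes. Slc2a1 and P4ha1 had interactions of 0.01 and -0.59 (edgeR adjusted p = 1.0 and 0.866). Of the longer lists 0 genes passed with edgeR (2 of 35 and 3 of 37 at an unadjusted p under 0.05), with Pdhb, Tigar, Pgam2 and Pgm1 and Ddit4, Ccng2 and Hmox1 among the nearest (edgeR adjusted p = 0.448 to 0.725).

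The last comparisons set secondary disease against the spleen groups. They share libraries with the comparisons above, so the same spleen controls stand behind both Vegfa results. Vegfa had 24.8, 18.6, 19.4 and 20.04 CPM in secondary disease, against 37.3, 38.3 and 36.1 CPM in spleen control. All 4 libraries were below the controls (log2 fold change -0.85 ± 0.16, edgeR adjusted p = 0.0142). It was 1 of 33 members to pass, against 2.03% of all genes tested, and the call ended without any 1 spleen control (edgeR adjusted p = 0.0652 to 0.0794). Those fits called 0.405% to 0.585% of all genes. Without secondary disease replicate 4, Vegfa (-0.83) and Pgam1 (-0.55) passed as lower, against 3.67% of all genes. Pgam1 had 156, 158 and 163 CPM in secondary disease replicates 1 to 3 and 289 CPM in replicate 4, against 230 to 237 CPM in spleen control. The 14 enzymes had a median of -0.19, and -0.33 without replicate 4. Beside them, progenitor and leukaemia markers summed to 1351 to 3151 CPM in secondary disease and 3429 to 3511 CPM in spleen control (0 of 8 called, 2 at an unadjusted p under 0.05). B cell markers summed to 18.04 to 56.38 CPM in secondary disease and 11.55 to 16.05 CPM in spleen control (0 of 7 called, 5 at an unadjusted p under 0.05). Mitochondrial genes took 3.16% to 7.78% of the counts in secondary disease and 2.20% to 2.86% in spleen control, and 7 of 12 neutrophil markers had an unadjusted p under 0.05 with 0 called; the part of these was not tested. In replicates 1, 2 and 3, 14, 12 and 12 enzymes lay below every spleen control. In replicate 4, 6 lay below and 7 above. The share of all genes that a single library held below or above every spleen control was not computed. Hk2, Gpi1, Pgk1 and Ldha were below the controls in all 4 libraries, against 12.4% of all genes tested, Gpi1 by less than 1 CPM in replicate 4. Hif1a had 76.3, 76.4, 75.5 and 38.8 CPM in secondary disease, against 112, 101 and 93.9 CPM in spleen control (log2 fold change -0.61, edgeR adjusted p = 0.142). Ndrg1 had 8.70, 8.56, 7.22 and 38.0 CPM in secondary disease, against 1.67, 1.12 and 1.84 CPM in spleen control, all higher and not called (log2 fold change 3.33 ± 0.92, edgeR adjusted p = 0.0904). Hk2 had 33.5, 33.9, 33.5 and 30.0 CPM in secondary disease and 52.9, 45.2 and 48.3 CPM in spleen control, with no overlap (log2 fold change -0.58, edgeR adjusted p = 0.152). Of the longer lists 0 genes passed with edgeR. At an unadjusted p under 0.05 there were 5 of 35 and 6 of 37, beside 15.1% of all genes tested. Pdk3, Aldoc, Pklr and Gpd1 and Ddit4, Rragd, Ccng2 and Ppfia4 came nearest (edgeR adjusted p = 0.107 to 0.176).

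Secondary disease replicate 4 also differed in its enzyme forms. Ldhb, the heart form of lactate dehydrogenase, had 2446 counts there and 0 to 11 counts in each of the other 15 libraries. By TPM it made up 21.3% of the sum of Ldha and Ldhb in that library and at most 0.0951% elsewhere. Pfkm had 224 CPM in replicate 4 and 61.3 to 63.3 CPM in secondary disease replicates 1 to 3. The brain forms of enolase and aldolase, Eno2 and Aldoc, had 372 and 325 CPM in replicate 4, against at most 0.117 and 0.586 CPM in the other 3. The markers of neurons and glia given above moved with these values in the same library, and their part was not tested.

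**Figure D5:**
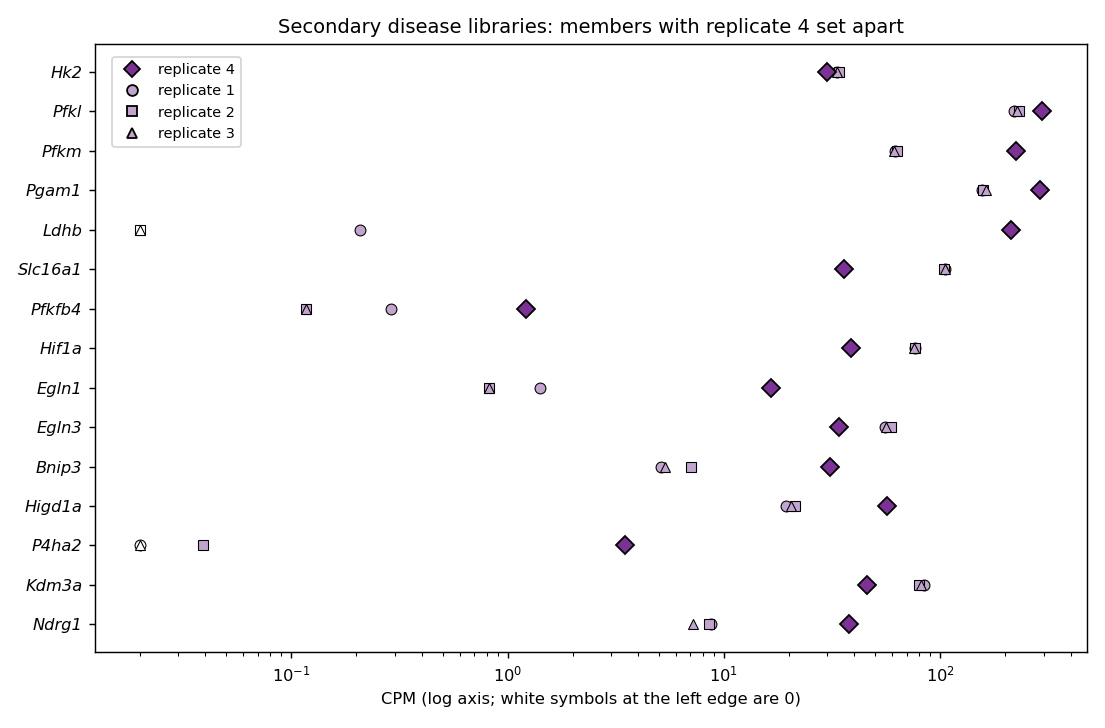
CPM (log axis) of the 15 members in which secondary disease replicate 4 stood apart from replicates 1 to 3 of its group, with a symbol for each replicate. Replicate 4 is higher in 10 and lower in 5.

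Against spleen doxycycline, Slc2a1 fell in secondary disease, with 73.2, 84.3, 93.0 and 60.98 CPM, against 97.5, 696 and 211 CPM in spleen doxycycline. Every secondary disease library was below every spleen doxycycline library, replicate 1 by the least (log2 fold change -2.10 ± 0.44, edgeR adjusted p = 0.0414). It was 1 of 33 members to pass, against 0.928% of all genes tested. The next were Bnip3l, Slc16a3 and Ndrg1 (log2 fold change -0.57, 0.62 and 2.45, edgeR adjusted p = 0.12, 0.158 and 0.169). Slc2a1 passed without secondary disease replicate 4 too (-2.004, edgeR adjusted p = 0.038), as 1 member against 4.98% of all genes. It did not pass without secondary disease replicate 1, 2 or 3, where 0% to 0.0487% of all genes passed. Without spleen doxycycline replicate 2 it did not pass (-0.99, edgeR adjusted p = 0.122); 0 members passed then, against 0.234% of all genes. Without spleen doxycycline replicate 1, 7 members passed, against 8.94% of all genes: Slc2a1, Bnip3l, Pdk1 and P4ha1 lower, and Hk2, Slc16a3 and Pfkfb3 higher. Bpgm and Taldo1 of the longer lists fell as well (log2 fold change -1.59 and -0.82, edgeR adjusted p = 0.0452 and 0.0307). Slc2a4 and G6pdx did not pass (edgeR adjusted p = 0.0934 and 0.122). Nor did any of 37 other hypoxia response genes (9 at an unadjusted p under 0.05, beside 17.4% of all genes). Hif3a, Plin2, Ccng2 and Tfrc of that list came nearest (edgeR adjusted p = 0.0509 to 0.107). The erythroid markers summed to 7279 to 11040 CPM in secondary disease, and 7 of 17 passed as lower than in spleen doxycycline. Their part was not tested.

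Over the 5 groups, ordered by their means, Slc2a1 was highest in spleen doxycycline (335 ± 318 CPM) and bone marrow doxycycline (307 ± 39.2), followed by spleen control (103 ± 5.08), bone marrow control (94.6 ± 9.03) and secondary disease (77.9 ± 13.9). The place of spleen doxycycline rests on replicate 2, without which Slc2a1 passed as lower there than in bone marrow doxycycline (log2 fold change -0.99, edgeR adjusted p = 0.0405). P4ha1 was highest in bone marrow doxycycline (38.96 ± 7.97 CPM) and lowest in spleen control (11.8 ± 0.987), with spleen doxycycline (23.9, its libraries ranging from 10.5 to 33.8 CPM), secondary disease (17.1 ± 3.52) and bone marrow control (12.8 ± 1.51) between them. Vegfa was highest in spleen control (37.2 ± 1.10 CPM) and lowest in bone marrow doxycycline (14.3 ± 0.926). Bone marrow control (20.9 ± 0.851), secondary disease (20.7 ± 2.82) and spleen doxycycline (19.5 ± 4.88) lay between, with overlapping ranges of mean ± SD. Bone marrow control was not tested against secondary disease or spleen doxycycline. The 15 enzymes summed to 6252 to 11150 CPM in spleen doxycycline and 10930 to 11650 CPM in spleen control. The sums were 8364 to 9492 CPM in bone marrow doxycycline, 8991 to 10140 CPM in bone marrow control and 8397 to 11700 CPM in secondary disease. The 10 other HIF targets summed to 443 to 686 CPM in spleen doxycycline and 461 to 473 in spleen control, with the highest sums in replicates 2 and 3, where the enzymes were lowest. In those libraries Bnip3l gave most of the sum, with 350 and 403 CPM. The remaining members moved little in their group means or were scarce. Hk1, the common hexokinase, averaged 734 to 802 CPM over the 5 groups, and Kdm3a 70.9 to 81.6 CPM. By library, Hk1 lay above every spleen control in spleen doxycycline replicate 1 and below every one in replicate 3. It was also below them in secondary disease replicates 1 and 4. Kdm3a lay above every spleen control in secondary disease replicates 1 to 3 and below in replicate 4 (45.62 CPM). Higd1a, a mitochondrial protein gene, averaged 19.5 to 29.5 CPM and Bnip3, a relative of Bnip3l, 4.64 to 12.1 CPM, both highest in secondary disease through replicate 4. Ankrd37, a HIF target of unclear role, averaged 1.42 to 2.50 CPM, and Egln1, the main prolyl hydroxylase, 1.65 to 4.90 CPM.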

How the data were processed

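RNA was sequenced from 16 libraries in 5 groups, read from the sample titles and treatments. The deposited expected counts and TPM (levels per transcript length and library total) per gene were made by the authors with RSEM; Trim Galore, FastQC, MultiQC, STAR, RSEM and build GRCm38 are named in the submitters' processing notes, without versions. The library kit is not stated to keep strand. Reads from stretches where genes overlap on opposite strands, as in 14 of the 35 members, therefore cannot be told apart by strand. Of the count columns, 0 lacked a library, and the counts and TPM of each library matched best with each other in 16 of 16 cases (lowest r 0.941 over gene-centred values).

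Counts were rounded and tested in R 4.3.3 with edgeR 4.0.16 and its quasi-likelihood test (filterByExpr, TMM scaling, all 16 libraries in a model of the 5 groups). P-values were adjusted by Benjamini-Hochberg over the 14435 genes tested, with a threshold of 0.05. CPM values are TMM-scaled, and TPM values were used as deposited. Errors of log2 fold changes are standard errors. The fit was tested on simulated data. Of 2-fold changes set into the data, 11% were recovered for the interaction and up to 59% in the other comparisons. For 4-fold changes it was 63% to 93%, so a gene that did not pass may still have changed. Alternatives were DESeq2 1.42.0 (its scaling and its Wald test), limma-voom (limma 3.58.1), filtering by a mean count of 50 or by nothing, the compared groups alone, a replicate block, and single libraries left out. Replicate pairs differed by more than sampling noise (lowest chi-square per degree of freedom 7.47). The total per library limits precision only for the scarce members: the floor is 3 counts per library.

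In each comparison every member that passed is named, and where fewer than 4 passed those with the smallest p up to 4, with up to 4 genes from each longer list, of which 1 gene is not reported here; other members are described to account for all 35. The members and lists were chosen with earlier results of these data known, and the neuron and glia markers after the values of secondary disease replicate 4 were seen. Promoter windows are from RefSeq (GRCm38.p6), and gene positions from GENCODE M21 (GRCm38).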

Additional observations from a re-analysis of the deposited data

Results flagged for a closer look

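In secondary disease, the group of 4 libraries, the highest or lowest library of each of the 35 members was compared with the rest by Dixon's gap test at its 95% critical value. That value was exceeded in 15 members, each time by replicate 4, where chance gives about 1 in 20 such groups. The share of all genes that exceed it was not computed. Over all genes, the chi-square per degree of freedom between replicate 4 and replicates 1 to 3 was 252 to 277. Among replicates 1 to 3 it was 10.2 to 31.1, so the count cannot be read as particular to these members. Among enzymes, replicate 4 stood high with 224.4 CPM for Pfkm, 296.3 for Pfkl, 288.8 for Pgam1 and 212.2 for Ldhb, and low with 30.01 CPM for Hk2. It was low for the lactate carrier Slc16a1 with 36.0 CPM and high for the kinase Pfkfb4 with 1.214 CPM. Of the oxygen-sensing genes, Hif1a was low at 38.77 CPM and Egln3 at 34.09 CPM, and Egln1 was high at 16.57 CPM. Of the other HIF targets, Ndrg1 was high at 37.99 CPM, Higd1a at 56.9, Bnip3 at 30.79 and P4ha2 at 3.469, and Kdm3a was low at 45.62 CPM. The same library had 2417 CPM of neuron and glia markers, 7.78% mitochondrial counts and the lowest total, and the part of these in the 15 values was not tested.

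The doxycycline effect on Pgam1 went in opposite directions in the tissues: each spleen doxycycline library was below each spleen control and each bone marrow doxycycline library was above each bone marrow control. The difference of the effects was -1.0388 on the log2 scale (edgeR adjusted p = 0.255, and 0.0104 without secondary disease replicate 4).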

How the results depend on the processing

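Every member that passed kept its direction under each alternative run. The number of members called in bone marrow doxycycline was 3. It was 1 with no filter (1.23% of all genes), 5 with DESeq2 and 2 with limma-voom (Pfkfb3 was lost). With the compared groups alone it was 17 (36.6% of all genes then passed), and it was 0 to 7 when single libraries were left out. In spleen doxycycline it was 2. It became 0 with no filter (0.0353% of all genes) or the compared groups alone (0.00766%), 7 with DESeq2, and 0 to 14 without single libraries. Between the controls of the tissues it was 0, and it became 12 with the compared groups alone (14.7% of all genes), 3 with DESeq2, 2 with limma-voom, and 0 to 3 without single libraries. Between the doxycycline groups it was 0, with 1 by DESeq2 and 0 to 6 without single libraries. For the interaction it was 0, with 1 by DESeq2 and 1 with the compared groups alone (0.163% of all genes). It was 0 to 3 without single libraries. For secondary disease against spleen control it was 1, with 3 for the compared groups alone (3.07% of all genes) and 2 by DESeq2. It was 0 to 2 without single libraries. Against spleen doxycycline it was 1, with 0 for no filter (0.0918% of all genes), the compared groups alone (0%) or limma-voom. It was 3 by DESeq2 and 0 to 7 without single libraries. The call on Slc2a1 there ended without spleen doxycycline replicate 2 or any of secondary disease replicates 1, 2 and 3. In these comparisons, in the order given, DESeq2 called 13.8%, 4.95%, 2.11%, 3.03%, 1.73%, 5.24% and 6% of all genes. The shares by limma-voom were 6.51%, 0.693%, 1.18%, 0.443%, 0.236%, 2.44% and 0.457%. With single libraries left out, edgeR called 0.154% to 17% of all genes in bone marrow doxycycline and 0% to 9.13% in spleen doxycycline. Its shares were 0% to 1.33% between controls, 0.00665% to 7.18% between doxycycline groups and 0% to 4.32% for the interaction. For secondary disease they were 0.405% to 3.67% against spleen control and 0% to 8.94% against spleen doxycycline. Counts rose most when secondary disease replicate 4 or spleen doxycycline replicate 1 or 2 was left out, and the cause was not tested. Without spleen doxycycline replicate 2 the count in spleen doxycycline fell from 2 to 0.

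With a replicate block the counts were 6 in bone marrow doxycycline, 4 in spleen doxycycline, 3 between controls and 1 for the interaction. They were 2 for secondary disease against spleen control and 0 against spleen doxycycline. The shares of all genes that passed were 13.6%, 2.59%, 0.811%, 0.27%, 2.92% and 2.4%, in the same order. Same-numbered libraries correlated at r = -0.266 to 0.163, with 2 pairs over 0.1. With 3 libraries in a group, these values cannot tell whether same-numbered libraries share a mouse or a batch. Groups of 3 or 4 libraries and 1 extreme library in several groups limit all tests. Pfkfb4, Ankrd37, Egln1, Ldhb and P4ha2 had few counts.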
